A study of Mus musculus with 7 samples.

Results

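The Slc25 genes encode the mitochondrial carriers, a family of proteins of the inner mitochondrial membrane that exchange metabolites, nucleotides, phosphate and cofactors between the cytosol and the matrix. Members were all genes of the deposited tables whose symbol was Slc25a followed by a number. There were 47 of them among 51426 genes. Of these, 41 had enough counts to be fitted, and 40 also held at least 10 counts in each of the 7 libraries and are the tested members. The mRNA of liver from male mice was sequenced after 16 weeks on a high-fat diet (HFD) that began at 8 weeks of age. Livers of 3 wild-type mice (WT, replicates 1 to 3) were compared with livers of 4 whole-body TET1 knockout mice (TET1 KO, genotype TET-1-TKO, replicates 1 to 4), and both groups received the HFD. TET1 is an enzyme that oxidizes 5-methylcytosine in DNA, and the study asked how its loss alters the fatty liver of these mice. The study describes a pair of whole-body lines, B6;129S4-Tet1tm1.1Jae/J and floxed TET1 mice crossed to a β-actin Cre strain, and the labels do not name the line sequenced. The genotype notation of its RNA sequencing comparison, TET1-/- against TET1wt/wt, is not the notation it uses for the Cre cross. Tet1 was deleted throughout the body by design, so no value below is specific to loss in hepatocytes.

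Carriers of this family share a fold of tandem repeats around a central binding site and usually swap one solute for another. In liver they link the cytosolic and mitochondrial sides of several pathways. The citrate carrier feeds fatty acid synthesis, the carnitine/acylcarnitine carrier feeds beta-oxidation, the ornithine and aspartate/glutamate carriers serve the urea cycle, and the ADP/ATP and phosphate carriers supply oxidative phosphorylation. Other members bring in coenzyme A, folate, NAD, iron and glutathione. A number of members still have no settled substrate. Uncoupling proteins Ucp1 to Ucp3 belong to the same family under other names and are described apart.

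No Slc25 member passed the test in either direction. With edgeR's quasi-likelihood test over 14754 genes and a Benjamini-Hochberg adjusted p under 0.05, 0 of 40 tested members were called higher in TET1 KO liver and 0 were called lower. Over all tested genes 0.874% were called higher and 1.15% lower, which is 129 and 169 genes, or 107 and 312 when libraries were scaled by size alone. At an unadjusted p under 0.05, 5 members were higher (12.5%) beside 13.6% of all genes, and 4 were lower (10%) beside 12.7% of all genes. DESeq2 called 1 tested member higher, Slc25a38 (0.52 on the log2 scale, adjusted p = 0.0330), and none lower, beside 4.64% and 4.81% of all genes. The ranges of the 2 groups of mice did not overlap for 4 members that were higher (10%) and 5 that were lower (12.5%), beside 11.7% and 10.8% of all genes. Log2 fold changes of the tested members ran from -0.60 to 0.73 and split evenly, with 20 above and 20 below 0. Their median was 0.0047, beside 0.012 for all tested genes. The 95% interval lay within 1 log2 unit on either side of 0 for 34 of the 40, and the interval of the median member reached 0.39 to each side. In WT and TET1 KO liver the median coefficient of variation between mice was 16.3% and 16.4%.

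**Figure D1:**
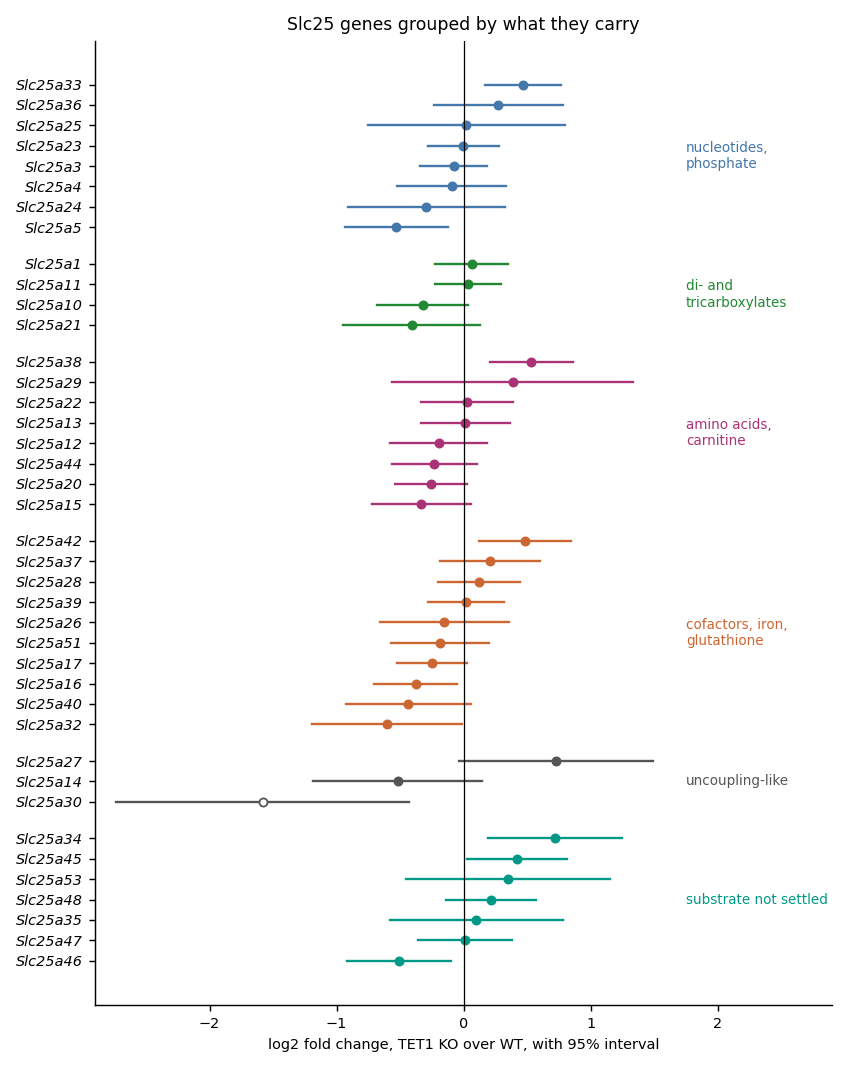
Log2 fold change (TET1 KO over WT, horizontal axis) of 40 of the 41 fitted Slc25 genes, grouped by what they carry. Points are edgeR estimates, lines are 95% intervals, and the open point is Slc25a30, which has 9 counts in 1 library and is not counted among the tested members. Tested members lie between -0.60 and 0.73, on both sides of 0.

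The libraries held 15005277 to 22746138 counts. Tet1 itself, the targeted gene, had 1 to 4 counts in every library of both groups, so these counts do not check the genotype labels. The Slc25 genes together took 2919, 3434 and 2944 CPM (read counts relative to the library total, scaled by TMM) in WT livers 1 to 3 and 2880.2, 2699, 2964 and 3042 CPM in TET1 KO livers 1 to 4, and the groups overlapped. WT liver 2 gave the highest value of all 7 for 15 of the 40 tested members, more than any other mouse, and TET1 KO liver 2 for 2. Hepatocyte markers filled 70414 to 93143 CPM in WT and 81875 to 91828 CPM in TET1 KO, and Alb made up most of each sum. Of these markers 0 of 10 were called, with 6 values above and 4 below 0 and a median log2 fold change of 0.10. Apoa1 had the smallest p, at 6220, 4284 and 5382 CPM in WT and 14219, 11378, 10185 and 9590 in TET1 KO. Its log2 fold change was 1.10 (adjusted p = 0.0818 by edgeR). Apob went the other way, at -0.56 (adjusted p = 0.172 by edgeR).

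TET1 KO liver 2 stood apart for some fat markers and not for others. Ucp1, the uncoupling protein of brown fat, had 264 counts there and 0 in each of the other 6 libraries. Adiponectin (Adipoq) had 0, 9 and 0 counts in WT and 0, 60, 0 and 0 in TET1 KO, and perilipin 1 (Plin1) had 0, 4 and 0 counts in WT and 1, 70, 0 and 0 in TET1 KO. Resistin (Retn) had 17 counts in that liver and at most 2 in any other. The lipid droplet gene Cidec and leptin (Lep) were instead highest in WT liver 2, with 595 and 17 counts against 52 and 6 in TET1 KO liver 2. With TET1 KO liver 2 left out, 0 members were called in either direction and the median log2 fold change of the members was -0.042. In bulk tissue, fewer cells of a type and less RNA per cell cannot be told apart.

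TET1 acts on CpG dinucleotides, so the CpG content of the members' promoters is given as sequence context; DNA methylation was not measured in these libraries. Promoter windows of 250 bases before an annotated start were taken from RefSeq (GRCm38.p6), and 46 windows of 36 of the 47 members were used. The windows shown belong to the 3 higher members and the lower member with the smallest p, and CG is in capitals. Slc25a38 (ENSMUSG00000032519, chromosome 9, 120110377 to 120126093) has its window at chr9:120110132-120110381 on the plus strand, Slc25a33 (ENSMUSG00000028982, chromosome 4, 149744036 to 149774267) at chr4:149774268-149774517 on the minus strand, Slc25a34 (ENSMUSG00000040740, chromosome 4, 141618819 to 141623891) at chr4:141623835-141624084 on the minus strand and Slc25a5 (ENSMUSG00000016319, chromosome X, 36795597 to 36798808) at chrX:36795347-36795596 on the plus strand.
Slc25a38: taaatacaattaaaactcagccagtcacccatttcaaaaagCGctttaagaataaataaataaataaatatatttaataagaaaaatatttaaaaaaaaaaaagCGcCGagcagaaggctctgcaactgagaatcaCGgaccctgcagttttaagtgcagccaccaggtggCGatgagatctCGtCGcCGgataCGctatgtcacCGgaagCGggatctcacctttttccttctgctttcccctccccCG
Slc25a33: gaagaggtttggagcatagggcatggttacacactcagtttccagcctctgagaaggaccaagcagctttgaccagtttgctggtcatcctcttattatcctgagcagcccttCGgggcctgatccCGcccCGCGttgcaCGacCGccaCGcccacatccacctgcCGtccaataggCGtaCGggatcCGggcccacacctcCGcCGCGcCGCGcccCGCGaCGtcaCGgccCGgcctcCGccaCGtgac
Slc25a34: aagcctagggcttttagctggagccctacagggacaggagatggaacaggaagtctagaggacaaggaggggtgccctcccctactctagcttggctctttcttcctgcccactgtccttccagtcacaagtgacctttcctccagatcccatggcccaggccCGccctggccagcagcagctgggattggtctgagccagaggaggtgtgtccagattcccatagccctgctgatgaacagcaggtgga
Slc25a5: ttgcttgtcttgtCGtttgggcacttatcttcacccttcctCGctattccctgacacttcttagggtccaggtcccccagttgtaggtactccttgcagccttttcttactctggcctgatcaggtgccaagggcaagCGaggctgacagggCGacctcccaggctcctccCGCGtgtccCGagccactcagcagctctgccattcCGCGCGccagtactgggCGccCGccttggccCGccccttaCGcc
These hold 12, 23, 1 and 14 CpG in that order, so the windows of the 3 higher members ranged from the CpG-poor window of Slc25a34 to the CpG-rich window of Slc25a33. Over the Slc25 windows the median was 11.5 CpG (1 to 43), beside 6 over all 32851 windows of this length. Windows of fitted members with a positive log2 fold change had a median of 12 and those with a negative one 11.5. The letters AGGTCA, the core letters of sites bound by many nuclear receptors, occurred on either strand in 4 of 46 Slc25 windows (8.70%) and in 14.02% of all windows. These were 4 of 22 windows of fitted members with a positive log2 fold change (18.2%) and 0 of 20 with a negative one. They belong to Slc25a34, Slc25a39, Slc25a45 and Slc25a47, and Slc25a39 and Slc25a47 had log2 fold changes of only 0.017 and 0.011. The split was not tested. A pair of AGGTCA letters in tandem with 1 base between them, AGGTCANAGGTCA, the arrangement bound by PPAR, occurred in 0 of 46 Slc25 windows and in 0.0335% of all windows. Each AGGTCA of such a pair is also counted in the share for the single motif.

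Compared per kilobase of exon, the family was led by a few members. Slc25a47, a liver-enriched carrier, stood highest with 219 ± 48.04 CPM per kb in WT (SD, n = 3) and 221 ± 15.5 in TET1 KO (SD, n = 4). Slc25a5, the ADP/ATP carrier ANT2, came next in both groups with 192 ± 10.04 CPM per kb in WT and 133 ± 29.6 in TET1 KO. The third was Slc25a39, which takes part in mitochondrial glutathione import, with 91.4 ± 4.58 CPM per kb in WT and 92.5 ± 10.1 in TET1 KO. Ranges of Slc25a47 and Slc25a5 overlapped in WT, so their order there was within the spread between mice, whereas Slc25a39 lay below both in all 7 livers. The ornithine carrier Slc25a15, the carnitine/acylcarnitine carrier Slc25a20, the citrate carrier Slc25a1, the dicarboxylate carrier Slc25a10 and the aspartate/glutamate carrier Slc25a13 followed at WT means of 70.2, 66.5, 65.96, 57.9 and 50.6 CPM per kb, and their ranges overlapped one another. In all, 8 members had a WT mean over 50 CPM per kb, 11 lay between 10 and 50, 15 between 1 and 10, and 13 at 1 or below. Counted as CPM rather than per kb, the 5 largest members held 45.7% of the family's reads in WT and 44.4% in TET1 KO.

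**Figure D2:**
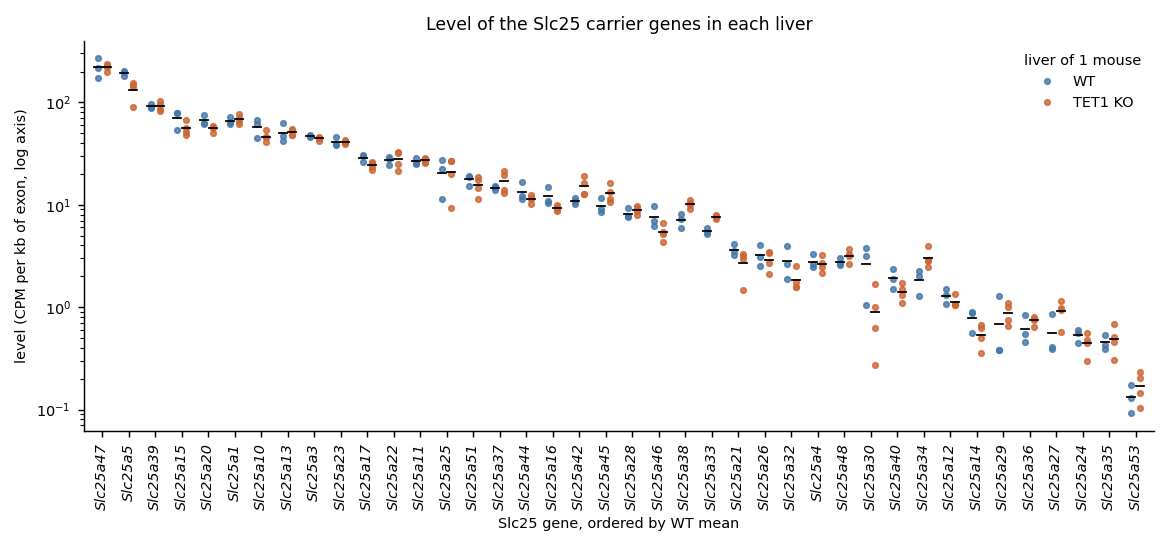
Level of 40 of the 41 fitted Slc25 genes in each liver, in CPM per kb of exon on a log axis; each point is 1 mouse (WT, n = 3; TET1 KO, n = 4) and bars are group means. Slc25a47 and Slc25a5 lead with WT means of 219 and 192, and Slc25a53 is last at 0.132.

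At the other end, 6 members were too low to be fitted. Slc25a41, an ATP-Mg/phosphate carrier, had 0 counts in all 7 libraries. Slc25a18 had at most 3 counts, Slc25a43 at most 2, and Slc25a31 and Slc25a54 at most 1. Slc25a31 is the ADP/ATP carrier of the male germ line, and Slc25a18 is the second glutamate carrier. Slc25a2, an ornithine carrier, had 7, 0 and 1 counts in WT and 3, 1, 9 and 5 in TET1 KO. A count of 0 allows up to 3 counts in a library, for counting error only. Several of these low genes sit beside a fitted member in the RefSeq annotation (GRCm38.p6). Slc25a41 lies 2056 bases from Slc25a23 on chromosome 17, Slc25a54 lies 6566 bases from Slc25a24 on chromosome 3, and Slc25a43 lies 18289 bases from Slc25a5 on chromosome X. Slc25a29 and Slc25a47, 13956 bases apart on chromosome 12, were both fitted but differed in level, with WT means of 0.684 and 219 CPM per kb.

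Among the carriers of nucleotides and phosphate, 8 of 10 members were tested, 3 had a positive and 5 a negative log2 fold change, the median was -0.039 and 0 were called. Slc25a5 was the tested member of this group with the largest difference. Its level was 322, 329.8 and 298 CPM in WT livers 1 to 3 and 147, 234, 241 and 255 CPM in TET1 KO livers 1 to 4. All 4 knockout livers lay below all 3 WT livers, and TET1 KO liver 1 was lowest. The fit gave a log2 fold change of -0.53 (SE 0.18, 95% interval -0.94 to -0.13, edgeR adjusted p = 0.111). Without TET1 KO liver 1 the log2 fold change was -0.38. Its pseudogene Slc25a5-ps had 0 to 2 counts per library, so few reads were assigned to that copy, and how reads that match both were counted is not given in the sources used here.

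Slc25a33 imports pyrimidine nucleotides into the matrix. It measured 9.79, 10.2 and 11.2 CPM in WT and 14.8, 14.4, 14.7 and 13.8 CPM in TET1 KO, with no overlap between the groups. Its log2 fold change of 0.47 (SE 0.14, 95% interval 0.17 to 0.77, edgeR adjusted p = 0.0799) placed it second among the members by p. The related pyrimidine carrier Slc25a36 measured 5.71, 3.11 and 3.75 CPM in WT and 4.38, 5.07, 5.47 and 5.24 in TET1 KO, with a log2 fold change of 0.27 (adjusted p = 0.464 by edgeR). The phosphate carrier Slc25a3 varied little between mice, at 265, 260.2 and 256 CPM in WT and 249, 235, 254 and 249 in TET1 KO. Its groups did not overlap, yet the difference was small, with a log2 fold change of -0.078 and a 95% interval of -0.34 to 0.19.

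The ATP-Mg/phosphate carriers adjust the adenine nucleotide pool of the matrix. Slc25a23 was the main one in these livers at 201, 243 and 207 CPM in WT and 209, 228, 215 and 215 in TET1 KO, and its log2 fold change was -0.0012 (95% interval -0.28 to 0.28). Slc25a25 varied most between mice of these, at 53.3, 127 and 103 CPM in WT and 124, 43.2, 123 and 92.9 in TET1 KO, a coefficient of variation of 39.8% and 39.5%. Low and high livers of Slc25a25 occurred in both groups, so its log2 fold change of 0.021 came with the wide interval -0.75 to 0.80. Slc25a24 was scarce, at 2.07, 1.91 and 1.55 CPM in WT and 1.63, 1.902, 1.02 and 1.53 in TET1 KO. Slc25a4, the ADP/ATP carrier ANT1 of muscle and heart, was low too at 7.73, 5.76 and 6.18 CPM in WT and 6.32, 7.54, 5.01 and 5.75 in TET1 KO (log2 fold change -0.095, adjusted p = 0.777 by edgeR).

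All 4 carriers of di- and tricarboxylates were tested, 2 were higher and 2 lower in value, the median was -0.15 and 0 were called. The citrate carrier Slc25a1, which exports citrate for fatty acid and sterol synthesis, measured 140.4, 155 and 135 CPM in WT and 154, 144, 133 and 169 in TET1 KO, a log2 fold change of 0.064 (95% interval -0.22 to 0.35). For the oxoglutarate/malate carrier Slc25a11 of the malate-aspartate shuttle the log2 fold change was 0.031 (95% interval -0.23 to 0.29). The dicarboxylate carrier Slc25a10 measured 211, 234 and 156 CPM in WT and 186, 140.4, 157 and 157 CPM in TET1 KO, where WT liver 3 lay among the knockout livers (log2 fold change -0.32, adjusted p = 0.229 by edgeR). Slc25a21, the oxodicarboxylate carrier of lysine and tryptophan breakdown, measured 19.9, 15.4 and 16.8 CPM in WT and 7.01, 15.1, 16.01 and 14.1 in TET1 KO. Here TET1 KO liver 1 stood below the rest, and leaving it out moved the log2 fold change from -0.41 to -0.20.

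Of 10 carriers of amino acids and carnitine, 8 were tested, 4 with a positive and 4 with a negative log2 fold change, a median of -0.090 and 0 called. Slc25a38, which brings glycine into the matrix for the first step of heme synthesis, had the smallest p of all Slc25 members. The gene, whose CpG-containing promoter is shown above, measured 22.05, 16.2 and 19.8 CPM in WT livers 1 to 3 and 30.9, 28.7, 27.5 and 24.96 CPM in TET1 KO livers 1 to 4. Every knockout liver was above every WT liver, the closest pair being 22.05 and 24.96 CPM. The log2 fold change of 0.53 (SE 0.15, 95% interval 0.21 to 0.86, edgeR adjusted p = 0.0754) missed the threshold by edgeR and passed it by DESeq2. With the replicate number as a block its edgeR adjusted p was 0.0493, at a log2 fold change of 0.59. Among the fits that left out 1 mouse, the log2 fold change was lowest, 0.41, without WT liver 2 (adjusted p = 0.301 by edgeR).

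The urea cycle carriers showed no called difference. Slc25a15, which moves ornithine into the matrix in exchange for citrulline, measured 185, 269.5 and 273 CPM in WT and 165, 177, 195 and 233 in TET1 KO, and WT liver 1 lay within the knockout range (log2 fold change -0.33, adjusted p = 0.251 by edgeR). The liver form of the aspartate/glutamate carrier, Slc25a13 or citrin, measured 130.5, 199 and 147 CPM in WT and 168, 150.0, 151 and 171 in TET1 KO, with a log2 fold change of 0.014 and a 95% interval of -0.33 to 0.36. Slc25a12, the form of muscle and brain, was far lower at 7.92, 10.9 and 9.603 CPM in WT and 7.76, 7.89, 7.67 and 9.83 in TET1 KO. Of 6 urea cycle enzymes in a list written for this work, 0 were called and their median log2 fold change was 0.13. The smallest p among them belonged to Cps1, which makes carbamoyl phosphate (log2 fold change -0.45, adjusted p = 0.333 by edgeR).

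Slc25a20, through which acylcarnitines enter the matrix for beta-oxidation, measured 111, 135 and 109.9 CPM in WT and 89.7, 103, 99.4 and 106 in TET1 KO. The groups did not overlap, but the nearest livers were 109.9 and 106 CPM and the log2 fold change was -0.25 (95% interval -0.54 to 0.029, edgeR adjusted p = 0.229). The branched-chain amino acid carrier Slc25a44 measured 41.5, 60.1 and 43.98 CPM in WT and 41.8, 41.1, 37.2 and 45.2 in TET1 KO, with a log2 fold change of -0.23. The glutamate carrier Slc25a22 measured 112, 118 and 98.8 CPM in WT and 128, 86.7, 132 and 100.4 CPM in TET1 KO. Slc25a29, a carrier of basic amino acids, was scarce at 0.984, 0.995 and 3.37 CPM in WT and 1.94, 2.61, 1.69 and 2.88 in TET1 KO. Their log2 fold changes of 0.029 and 0.39 had intervals of -0.33 to 0.39 and -0.56 to 1.34.

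The carriers of cofactors, iron and glutathione made up the largest group, with all 11 members tested, 4 higher and 7 lower in value, a median of -0.15 and 0 called. Slc25a42 carries coenzyme A into the matrix. Its level was 69.8, 61.3 and 64.7 CPM in WT and 115, 76.7, 97.4 and 75.6 CPM in TET1 KO, all knockout livers above all WT livers, with TET1 KO livers 1 and 3 highest and a log2 fold change of 0.48 (SE 0.16, 95% interval 0.12 to 0.84, edgeR adjusted p = 0.106). Slc25a16, also tied to coenzyme A, went the other way at 50.2, 72.05 and 51.6 CPM in WT and 41.95, 43.04, 47.5 and 45.97 CPM in TET1 KO. The groups did not overlap and WT liver 2 was highest. Its log2 fold change of -0.38 (SE 0.15, 95% interval -0.70 to -0.050, edgeR adjusted p = 0.144) became -0.20 (adjusted p = 0.491) without WT liver 2. Slc25a17, the peroxisomal member, which carries coenzyme A, FAD and NAD, measured 43.4, 49.3 and 51.3 CPM in WT and 43.2, 36.7, 42.8 and 39.1 CPM in TET1 KO. Its groups were separated by a narrow margin, 43.4 against 43.2 CPM in the nearest livers, and the log2 fold change was -0.25 (SE 0.12, edgeR adjusted p = 0.229).

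Slc25a32, which carries folate, measured 5.51, 11.7 and 7.73 CPM in WT and 5.13, 4.65, 4.603 and 7.47 CPM in TET1 KO. The groups overlapped, since WT liver 1 lay within the knockout range, and WT liver 2 was highest. Its log2 fold change of -0.60 (SE 0.27, 95% interval -1.20 to -0.012, edgeR adjusted p = 0.183) was the lowest fold change of the tested members and became -0.27 without WT liver 2. The mitoferrins bring iron in for heme and iron-sulfur clusters. Slc25a37, or mitoferrin-1, measured 62.8, 57.8 and 62.3 CPM in WT and 80.4, 57.8, 88.99 and 54.3 in TET1 KO. Slc25a28, or mitoferrin-2, measured 11.7, 11.6 and 14.02 CPM in WT and 14.8, 13.9, 13.2 and 12.1 in TET1 KO. Neither passed the test, with log2 fold changes of 0.21 and 0.12. The knockout livers split into a high and a low pair for Slc25a37 (livers 1 and 3, then 2 and 4), and the same pair was high for Slc25a22, Slc25a25, Slc25a42 and Slc25a45.

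For the glutathione importers, Slc25a39 measured 247, 266 and 242 CPM in WT and 227, 268, 237 and 287 in TET1 KO (log2 fold change 0.017, 95% interval -0.28 to 0.32). Its scarcer relative Slc25a40 measured 5.22, 6.51 and 4.14 CPM in WT and 3.07, 3.66, 4.14 and 4.73 in TET1 KO (log2 fold change -0.44, adjusted p = 0.233 by edgeR). The S-adenosylmethionine carrier Slc25a26 and the NAD carrier Slc25a51 had log2 fold changes of -0.15 and -0.19, with 95% intervals of -0.66 to 0.36 and -0.57 to 0.20.

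Members related to the uncoupling proteins were scarce. Slc25a30, first described in kidney, showed the largest difference of any fitted member but fell just outside the rule for tested members, with 36, 157 and 97 counts in WT and 46, 15, 9 and 37 counts in TET1 KO. Scaled to CPM, WT liver 1 (1.77) lay below TET1 KO liver 1 (2.88), so the groups overlapped. Its log2 fold change was -1.58 (SE 0.52, 95% interval -2.73 to -0.43, edgeR adjusted p = 0.101), and DESeq2 gave -1.59 with an adjusted p of 0.0337. The members just inside the rule were Slc25a14 and Slc25a53, whose lowest libraries held 12 and 15 counts. Slc25a27, or UCP4, measured 2.46, 1.16 and 1.104 CPM in WT and 2.82, 1.62, 3.27 and 2.64 CPM in TET1 KO, a log2 fold change of 0.73 (adjusted p = 0.205 by edgeR), the highest of the tested members, and 1.19 without WT liver 1 (adjusted p = 0.0749 by edgeR). For Slc25a14 the values were 1.33, 2.07 and 2.097 CPM in WT and 1.57, 0.845, 1.18 and 1.48 CPM in TET1 KO (log2 fold change -0.52, adjusted p = 0.290 by edgeR). Of the relatives under other names, Ucp2, Mtch1 and Mtch2 were tested, 0 were called and their median was -0.29. Ucp2, which had the smallest p of the 3, measured 28.1, 25.04 and 32.6 CPM in WT and 18.5, 25.01, 20.7 and 29.5 in TET1 KO (log2 fold change -0.29, adjusted p = 0.313 by edgeR). Ucp3 was too low to be fitted, with 3, 4 and 1 counts in WT and 0 in each TET1 KO liver.

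Of the 9 members without a settled substrate in the list used here, 7 were tested, 6 with a positive and 1 with a negative log2 fold change, a median of 0.21 and 0 called. Slc25a34 measured 6.004, 3.399 and 5.41 CPM in WT and 7.51, 7.75, 10.5 and 6.54 CPM in TET1 KO, the groups did not overlap, and TET1 KO liver 3 was highest. It had a log2 fold change of 0.72 (SE 0.24, 95% interval 0.19 to 1.24, edgeR adjusted p = 0.103), which became 0.49 without WT liver 2. Slc25a45 measured 24.3, 22.3 and 30.5 CPM in WT and 43.6, 30.3, 35.3 and 28.3 CPM in TET1 KO. WT liver 3 lay above TET1 KO livers 2 and 4, and the fit gave a log2 fold change of 0.42 (SE 0.18, 95% interval 0.028 to 0.81, edgeR adjusted p = 0.166). Slc25a46, an outer membrane protein that shapes mitochondrial fusion and fission, had the only negative value of the group at 27.9, 42.9 and 31.2 CPM in WT and 19.2, 22.9, 23.99 and 29.6 CPM in TET1 KO. The groups overlapped at WT liver 1 and TET1 KO liver 4, and WT liver 2 was far above the rest. Its log2 fold change of -0.51 (SE 0.19, 95% interval -0.91 to -0.10, edgeR adjusted p = 0.125) became -0.31 without WT liver 2.

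The most expressed member, Slc25a47, measured 342, 423 and 272 CPM in WT and 361, 314, 349 and 371 in TET1 KO, with the highest and the lowest of the 7 livers both WT. Its log2 fold change was 0.011 with a 95% interval of -0.36 to 0.38. Slc25a48, Slc25a35 and Slc25a53 had log2 fold changes of 0.21, 0.10 and 0.35, and the last of these rested on 15 to 26 counts per library.

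**Figure D3:**
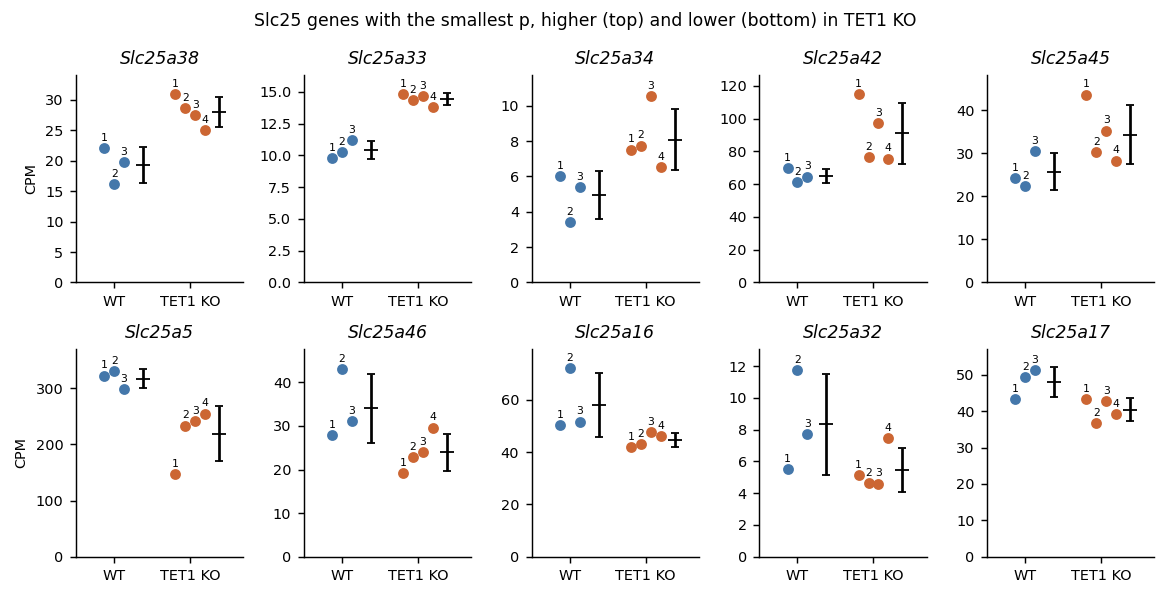
CPM in each liver (numbers are replicates) for the 5 tested Slc25 genes with the smallest p among those higher (top row) and lower (bottom row) in TET1 KO; bars give the group mean ± SD (WT, n = 3; TET1 KO, n = 4) and all axes start at 0. Slc25a38, Slc25a33, Slc25a34 and Slc25a42 are higher in all 4 knockout livers than in any WT liver, Slc25a5, Slc25a16 and Slc25a17 lower, and Slc25a45, Slc25a46 and Slc25a32 overlap.

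Without TET1 KO liver 2, which held the Ucp1 counts, the higher members of that plot had log2 fold changes of 0.51, 0.46, 0.72, 0.54 and 0.46 in the order shown, and the lower ones -0.58, -0.50, -0.38, -0.55 and -0.22. Without WT liver 2, the highest liver for many members, the same genes had 0.41, 0.45, 0.49, 0.43 and 0.32, and -0.51, -0.31, -0.20, -0.27 and -0.23. None of the 10 changed sign in either case.

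Single mice also set the size of other differences. Without WT liver 2 the log2 fold change was -0.20 for Slc25a10, -0.16 for Slc25a20, 0.078 for Slc25a29, 0.083 for Slc25a36, -0.26 for Slc25a40 and -0.055 for Slc25a44, each nearer to 0 than with all mice. Without WT liver 1 it was -0.50 for Slc25a15, 1.19 for Slc25a27, 0.55 for Slc25a36 and 0.091 for Slc25a29. Without WT liver 3 it was 1.18 for Slc25a29 and -0.50 for Slc25a10, and without TET1 KO liver 3 -0.15 for Slc25a24 and 0.060 for Slc25a37. Slc25a53 ran from 0.15 to 0.55 over these fits, Slc25a51 from -0.29 to -0.076, Slc25a28 from 0.066 to 0.20 and Slc25a1 from 0.00066 to 0.12.

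Summed by role and per kilobase, the nucleotide and phosphate group measured 303, 329 and 298 CPM per kb in WT livers 1 to 3 and 212, 249, 271 and 271 CPM per kb in TET1 KO livers 1 to 4. These sums did not overlap, and Slc25a5 was the largest part of each. The amino acid and carnitine group summed to 206, 271 and 234 CPM per kb in WT and 208, 202, 216 and 231 in TET1 KO. Sums of the di- and tricarboxylate group were 155, 171 and 136 CPM per kb in WT and 152, 136, 138 and 155 in TET1 KO. The cofactor, iron and glutathione group summed to 186, 206 and 196 CPM per kb in WT and 191, 184, 195 and 201 in TET1 KO. The groups of mice overlapped in each of these other sums, which are descriptions and were not tested.

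Close relatives within the family often split between a dominant and a minor form, and that ratio can be read within each liver. It was computed from counts for 10 pairs, with an exact two-sided permutation test over the 35 splits of the 7 mice and Benjamini-Hochberg adjustment over the 10. The smallest p that 35 splits allow is 0.0286, which becomes 0.286 for a single separated pair, so 1 pair alone could not pass the threshold after adjustment. Slc25a5 exceeded Slc25a4 by 41.7, 57.2 and 48.2-fold in WT and by 23.3, 30.98, 48.2 and 44.2-fold in TET1 KO (p = 0.229, adjusted p = 0.571, exact permutation). The ratio of Slc25a13 to Slc25a12 was 16.5, 18.2 and 15.3 in WT and 21.7, 19.01, 19.7 and 17.4 in TET1 KO (p = 0.0857, adjusted p = 0.429, exact permutation). Slc25a39 to Slc25a40 gave 47.4, 40.9 and 58.6 in WT and 74.1, 73.3, 57.1 and 60.6 in TET1 KO, with the same p and adjusted p. These were the smallest p of the 10, and the groups overlapped for all 10 ratios. For Slc25a37 to Slc25a28 the ratio ran from 4.44 to 5.38 in WT and 4.14 to 6.74 in TET1 KO, for Slc25a33 to Slc25a36 from 1.72 to 3.29 and 2.63 to 3.39, and for Slc25a47 to Slc25a48 from 29.9 to 42.0 and 28.4 to 40.6. Slc25a14 to Slc25a30 ran from 0.318 to 0.750 in WT and 0.543 to 2.56 in TET1 KO (p = 0.143, adjusted p = 0.476, exact permutation). Slc25a22 to Slc25a18 and Slc25a15 to Slc25a2 were not computed because Slc25a18 and Slc25a2 had libraries with 0 counts.

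**Figure D4:**
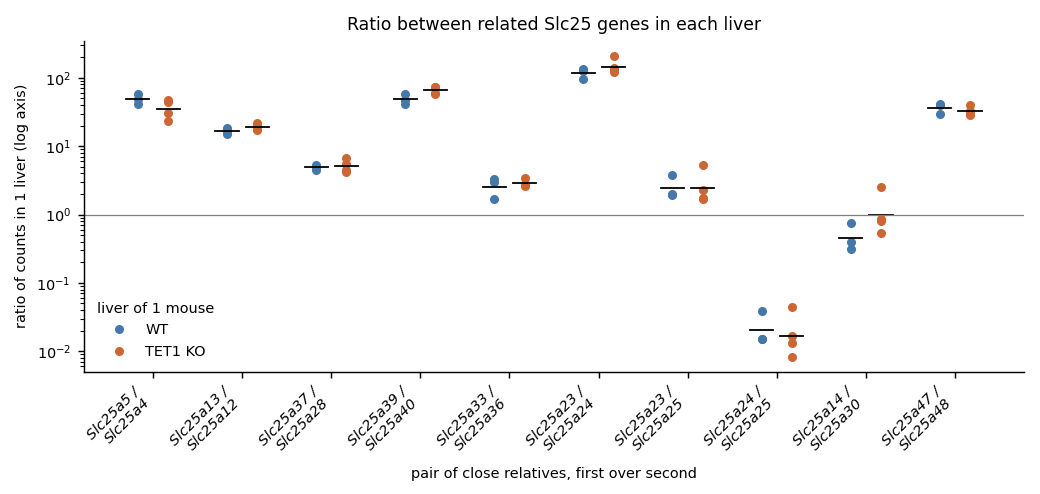
Ratio of the counts of related Slc25 genes within each liver (log axis) for 10 pairs; points are single mice (WT, n = 3; TET1 KO, n = 4), bars are geometric means and the grey line marks equal counts. The ratios of Slc25a13 to Slc25a12 and of Slc25a39 to Slc25a40 have the smallest p, and the groups overlap in every pair.

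One member is a neighbour of the targeted gene. Slc25a16 (ENSMUSG00000071253, chromosome 10, 62920632 to 62946494) lies 33162 bases from Tet1 (62804570 to 62887469) in RefSeq GRCm38.p6 and is the second nearest protein-coding gene. The nearest, Ccar1, 12201 bases away on the other side, had a log2 fold change of 0.54 (SE 0.16, edgeR adjusted p = 0.0844). Beyond Slc25a16, Dna2 had 0.48 (adjusted p = 0.240 by edgeR) and Rufy2 -0.067 (adjusted p = 0.881 by edgeR), and Hnrnph3, which overlaps Rufy2, had 0.64 (adjusted p = 0.0947 by edgeR). Slc25a16 was thus lower in value while its tested neighbours were higher or near 0, and none of these 5 genes passed the test. Whether the altered Tet1 locus bears on these values was not tested.

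Genes that work beside the carriers were taken from lists written for this work. Carriers reach the inner membrane through the TIM22 pathway. Of 12 genes of that pathway 1 was called higher and 0 lower, with 6 values above and 6 below 0, beside 0.874% and 1.15% of all tested genes. The called gene, Timm10b, a small chaperone of the intermembrane space that docks carriers at TIM22, measured 21.9, 16.8 and 17.99 CPM in WT and 32.1, 29.02, 32.6 and 26.4 CPM in TET1 KO. All knockout livers lay above all WT livers, and the log2 fold change of 0.67 (SE 0.14, 95% interval 0.35 to 0.99, edgeR adjusted p = 0.0444) passed by a small margin. Leaving out WT replicate 2 or 3 or TET1 KO replicate 1, 2 or 3 ended the call, with adjusted p of 0.209, 0.116, 0.0732, 0.0954 and 0.126 by edgeR. Scaling by library size alone also ended it (adjusted p = 0.0564). Of 15 other transport genes of the mitochondrial membranes, such as the pyruvate carrier and the porins, 0 were called, with 8 values above and 7 below 0 and a median of 0.011.

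The enzymes of the shuttles stood mostly below 0, whereas 4 of the 6 urea cycle enzymes stood above it. Of 12 enzymes of the malate-aspartate and glycerol phosphate shuttles, citrate export and the carnitine system, 0 were called, while 11 had a log2 fold change below 0 and the median was -0.41, beside 0.012 for all tested genes. The cytosolic glycerol 3-phosphate dehydrogenase Gpd1 had the smallest p at 317, 435 and 307 CPM in WT and 230.0, 228, 229.6 and 214 CPM in TET1 KO. Every knockout liver was below every WT liver, with WT liver 2 highest, and the log2 fold change of -0.65 (SE 0.15, 95% interval -0.98 to -0.31, edgeR adjusted p = 0.0546) missed the threshold. The carriers of the same routes stood near 0 or below it. Slc25a1, Slc25a11 and Slc25a13 had log2 fold changes of 0.064, 0.031 and 0.014, which changed sign with scaling by library size only. Slc25a10, Slc25a12 and Slc25a20 had -0.32, -0.19 and -0.25. The 95% interval of each of these carriers included 0.

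Markers of other cell types differed in value between the groups in places, and those of muscle were near 0. Of 6 cholangiocyte markers 5 were tested, and all 5 were higher in value (median 1.22; summed level 29.7 to 37.9 CPM in WT and 46.2 to 68.0 in TET1 KO), and the smallest p was that of Sox9 (log2 fold change 1.22, adjusted p = 0.0569 by edgeR). TET1 KO liver 4 stood apart for Krt19 (6.68 CPM, 1.06 to 1.69 in the other knockout livers), Epcam (4.87 CPM, 0.689 to 0.986) and Krt7 (2.69 CPM, 0.767 to 1.41), whereas TET1 KO liver 2 was highest for Sox9 and Spp1. Neutrophil markers summed to 2.03 to 32.5 CPM in WT and 1.31 to 8.45 in TET1 KO. The 2 tested, S100a8 and S100a9, had log2 fold changes of -1.64 and -1.35. WT liver 3 stood apart, with S100a8 at 1.53, 0.912 and 13.3 CPM in WT livers 1 to 3. Erythroid markers are of interest for Slc25a38 and Slc25a37 because both serve heme synthesis. They summed to 781 to 874 CPM in WT and 224 to 1118 in TET1 KO, with 6 of 7 tested values below 0 and a median of -0.52. Klf1, with the smallest p of this list, went the other way without overlap of the groups (log2 fold change 0.73, adjusted p = 0.0785 by edgeR). The globin gene Hbb-bs measured 340, 350 and 314 CPM in WT and 46.7, 151, 127 and 468 in TET1 KO livers 1 to 4, so liver 4 stood apart. The sums overlapped for Kupffer cell and macrophage markers (242 to 399 CPM in WT, 190.1 to 399.7 in TET1 KO), for stellate cell markers (232 to 398 in WT, 221 to 291 in TET1 KO) and for T, NK and B cell markers (3.32 to 5.96 in WT, 5.06 to 11.7 in TET1 KO). Dcn was the largest part of each stellate cell sum, and in that list 6 values were below 0 and 2 above. Its collagen genes Col3a1, Col1a1 and Col1a2 had log2 fold changes of -0.99, -0.96 and -0.84 (adjusted p = 0.0853, 0.0874 and 0.101 by edgeR). All of these collagen genes were highest in WT liver 1. Endothelial markers summed to 186 to 188 CPM in WT and 157 to 184 in TET1 KO, with 6 of 7 values below 0, and skeletal muscle markers to at most 0.564 CPM. Adipocyte markers summed to 12.6 to 30.1 CPM in WT and 28.7 to 55.9 in TET1 KO, with 2 of 6 tested, and the 2 tested markers lay on opposite sides of 0. Cidec measured 13.9, 24.7 and 1.71 CPM in WT and 1.13, 3.66, 1.02 and 1.35 in TET1 KO (log2 fold change -2.95, adjusted p = 0.0550 by edgeR). Adrb3 made up most of the sum in every knockout liver. Among the cell type markers Adrb3, of the adipocyte list, was the only one called, at 14.7, 4.19 and 10.8 CPM in WT and 41.8, 41.5, 47.97 and 27.2 CPM in TET1 KO (log2 fold change 2.00, SE 0.36, edgeR adjusted p = 0.0218), with the call lost without TET1 KO replicate 2 or 3 (adjusted p = 0.0551 and 0.0660). It was high in all 4 knockout livers, unlike Ucp1, Adipoq and Plin1. The part of these cells in the Slc25 values was not tested.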

How the data were processed

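Livers of 3 WT and 4 TET1 KO mice were analysed, with groups and replicate numbers from the sample labels. The authors deposited a table of raw read counts per gene for each mouse. Per the submitters' processing notes these counts came from Trimmomatic 0.36, GSNAP and featureCounts 1.5.3 on GRCm38. The annotation release, the strand setting of the counting and the treatment of reads that match several genes are not given in the sources used here, so antisense, overlapping and near-identical genes are uncertain. The study describes the replicates as mice and its controls as littermates. The litters of the sequenced mice are not given in the sources used here, so litter was not modelled. Tables were joined by Ensembl identifier, since 26 symbols differed between tables, and 5 repeated entries were left out.

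Counts were fitted in R 4.3.3 with edgeR 4.0.16 (filterByExpr, TMM, glmQLFit with legacy = FALSE, glmQLFTest, no covariates) over 14754 genes. Calls required a p under 0.05 after Benjamini-Hochberg adjustment. Standard errors and 95% intervals follow from the F statistic. The limit of 3 for a count of 0 covers counting error only. DESeq2 1.42.0 was the alternative test. Exon lengths were those of GENCODE M1, matched by identifier for all 47 members, and positions and promoters those of RefSeq GRCm38.p6. The fits were tested on simulated data. The members and the gene lists were chosen with earlier results of these data known. Values by mouse are given for the 5 higher and 5 lower members with the smallest p, the 3 with the highest level per kb, the member nearest Tet1 and the pairs of close relatives, and of each other list for its called genes or the gene with the smallest p. Other members shown by mouse, Ucp1, Ucp3 and the other genes near Tet1 were named after their values were seen. So were the cell type markers other than Adrb3, Sox9, Apoa1, Klf1, S100a8 and Col3a1. The alternatives used DESeq2, RLE scaling, unscaled library sizes, unfiltered genes or a minimum of 10 counts in each mouse, a block for the replicate number, robust estimation of the dispersion, changed limits and member rules, or 1 mouse fewer. Single values of some genes are not reported here, though counts and medians include them.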

Additional observations from a re-analysis of the deposited data

Results flagged for a closer look

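In TET1 KO liver 4, Slc25a12, the aspartate/glutamate carrier of muscle and brain, measured 9.83 CPM, while the other 3 knockout livers lay between 7.67 and 7.89 CPM. The gap to the nearest liver was 0.899 of the group's range, above Dixon's 95% critical value for 4 samples. The WT livers spanned 7.92 to 10.9 CPM, so the value of TET1 KO liver 4 was within the WT range. It was the 1 such case among 41 members examined, where about 1 in 20, or 2.05, would be expected by chance.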

How the results depend on the processing

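The count of tested members called lower was 0 under every alternative listed here, and that of members called higher was 0 except with DESeq2 (1, Slc25a38), with the replicate block (1, Slc25a38) and at an adjusted p under 0.1 (2, Slc25a38 and Slc25a33). The median log2 fold change of the members was -0.092 by library size only, where that of all genes was -0.081, and -0.057 with the relatives under other names added. It ran from -0.071 to 0.052 when 1 mouse was left out. Deviations of same-numbered mice correlated at 0.21, -0.12 and -0.096 for numbers 1 to 3, so the numbers were not taken as pairs, and TET1 KO replicate 4 has no partner for the block. Of the log2 fold changes of single members over these settings, 508 kept their direction and their side of the threshold, 48 changed sign and 3 newly passed it, which were Slc25a38 with DESeq2 and with the block and Slc25a30 with DESeq2. The cause was not tested.

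Scaling by library size only changed the sign to -0.028 for Slc25a1, -0.063 for Slc25a11, -0.080 for Slc25a13, -0.067 for Slc25a22, -0.071 for Slc25a25, -0.0012 for Slc25a35, -0.076 for Slc25a39 and -0.086 for Slc25a47. Without a filter the values became -0.015 for Slc25a13, -0.0083 for Slc25a25, -0.011 for Slc25a39 and -0.020 for Slc25a47. With the replicate block they were 0.0064 for Slc25a23, -0.0039 for Slc25a25 and -0.048 for Slc25a39. DESeq2 gave -0.00055 for Slc25a13 and -0.0046 for Slc25a47, and RLE size factors gave -0.00046 for Slc25a13 and -0.0046 for Slc25a47. Leaving out 1 mouse gave -0.22 to 0.030 for Slc25a4, -0.017 to 0.086 for Slc25a11, -0.12 to 0.20 for Slc25a13, -0.074 to 0.12 for Slc25a22, -0.065 to 0.080 for Slc25a23, -0.28 to 0.29 for Slc25a25, -0.31 to 0.049 for Slc25a26, -0.11 to 0.29 for Slc25a35, -0.046 to 0.069 for Slc25a39 and -0.16 to 0.17 for Slc25a47.

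Over all genes, 129 higher and 169 lower calls became 16 and 22 without WT replicate 2, and 68 and 156 without WT replicate 3. Without TET1 KO replicate 1 they were 82 and 105, without replicate 2 they were 45 and 59, without replicate 3 they were 31 and 48, and without replicate 4 they were 427 and 464. DESeq2 called 685 and 710, the block 670 and 656, the fit without a filter 245 and 347 and that by library size only 107 and 312. With 3 and 4 mice the 95% interval of the median member reached 0.39 log2 units to each side, and differences smaller than a member's own interval were not resolved. The members with the fewest counts, such as Slc25a53 with 15 to 26, are the least deeply sampled.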
